A study of Mus musculus with 8 samples.

Results

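The genes described here encode the main families of molecular chaperones: the 70, 90 and 110 kDa heat shock proteins, the small heat shock proteins, the J-domain proteins, the mitochondrial chaperonin and the cytosolic chaperonin CCT. They were chosen by gene name among the probe sets that carry a single gene symbol, leaving out Hspa5 and Hsp90b1 of the endoplasmic reticulum, and came to 190 probe sets for 77 genes of 45037 probe sets for 18193 genes. The names also take in some genes whose products are known from the endoplasmic reticulum, among them Hspa13, Dnajb9, Dnajb11, Dnajc1, Dnajc3 and Dnajc10, so the group is wider than cytosol and mitochondria. Another 3 probe sets, shared between Dnajc19 and other symbols, were left out by the rule.

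Chaperones bind unfolded stretches of other proteins and keep them from clumping until they fold. J-domain proteins hand clients to HSP70 and switch on its ATPase, HSP110 exchanges its nucleotide, HSP90 matures kinases and steroid receptors, and the chaperonins HSP60 and CCT enclose a client in a ring. Many of the genes are switched on by heat shock factors, which bind repeats of the bases GAA and TTC, and HSF1 is known in mice as a maternal factor of the oocyte.

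Mouse germinal vesicle (GV) oocytes, immature oocytes that still have their nucleus, were measured on 1 Affymetrix array for each sample. They were either cultured for 48 h in milrinone (4 samples) or untreated and uncultured (4 samples). Milrinone inhibits phosphodiesterase 3 and holds oocytes at the GV stage. All labels describe GV oocytes, and they give no strain, age or genotype; they name no sample cultured without milrinone, so drug, culture and elapsed time cannot be told apart. The labels do not say whether replicates came from separate mice, so a p-value here reflects only how far the samples scatter, possibly for technical reasons, and since each array received 15 µg of cRNA every level is a share of the sample's RNA.

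The oocyte markers, 11 genes such as Gdf9 and Zp3, had a value at all 13 of their probe sets on all 8 arrays, with summed intensities of 154528 to 164120 on milrinone arrays and 150894 to 173801 on untreated arrays. Other cells left more signal in the untreated samples. Of 38 probe sets for 18 genes of granulosa, cumulus and theca cells, 9 to 17 had a value on milrinone arrays and 23 to 32 on untreated arrays, and their summed intensity was 2752 to 3816 on milrinone arrays against 21377 to 94556 on untreated arrays, the highest on untreated 1. Cyp17a1, Star, Amhr2 and Fst were empty on every milrinone array and had a value on every untreated array. Of 18 probe sets for 12 genes of blood, stroma and endothelium, 3 to 5 had a value on milrinone arrays and 8 to 13 on untreated arrays, with summed intensities of 585 to 734 and 1390 to 8130, again highest on untreated 1. Untreated 1 also correlated less with the rest (median r 0.930) than the other 7 arrays did (0.966 to 0.980). The 3'/5' signal ratio of Actb control probes, often used as a guide to RNA integrity, was 11.6 to 20.4 on milrinone arrays and 6.87 to 13.1 on untreated arrays. What set this ratio here was not tested. The part of other cells, RNA integrity or untreated 1 in the chaperone values below was not tested, except where a value without untreated 1 is given, and in bulk samples like these fewer cells of a type and less RNA per cell cannot be told apart.

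The bases in front of 5 genes are shown because these genes take up much of the account below; no relation between the bases and the values was tested. Hspd1 and Hspe1, the ring and the lid of the mitochondrial chaperonin, lie head to head, and the first line is the whole stretch between their starts, at chr1:55087933-55088147. The other lines are the 150 bases before the start of Cct6a (chr5:129787206-129787355, plus strand), Hspa1b (chr17:34959239-34959388, minus strand) and Hspb1 (chr5:135887769-135887918, plus strand). The sequences are those of RefSeq on build GRCm38.p6, and capitals mark matches to GAANNTTC, a short form of the repeat bound by heat shock factors, or to a longer form, GAANNTTC followed directly by NNGAA. Both were searched on both strands, and the longer form contains the shorter.
Hspd1 to Hspe1: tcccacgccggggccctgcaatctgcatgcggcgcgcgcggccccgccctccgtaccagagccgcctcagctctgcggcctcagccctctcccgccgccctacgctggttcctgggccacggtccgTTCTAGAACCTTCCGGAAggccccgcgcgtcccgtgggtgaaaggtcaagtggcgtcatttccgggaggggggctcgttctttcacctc
Cct6a: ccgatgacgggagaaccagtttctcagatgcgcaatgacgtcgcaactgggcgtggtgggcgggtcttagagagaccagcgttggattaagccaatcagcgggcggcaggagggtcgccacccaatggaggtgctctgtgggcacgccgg
Hspa1b: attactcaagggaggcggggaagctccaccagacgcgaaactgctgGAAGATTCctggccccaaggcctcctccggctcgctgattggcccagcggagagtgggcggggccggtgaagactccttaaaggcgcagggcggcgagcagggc
Hspb1: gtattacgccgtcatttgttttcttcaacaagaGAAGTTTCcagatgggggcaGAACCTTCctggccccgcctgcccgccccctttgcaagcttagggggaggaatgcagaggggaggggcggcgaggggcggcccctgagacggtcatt

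A promoter window, 250 bases before to 50 bases after the start, was at hand for 63 of the 77 genes. GAANNTTC was found in 16 of the 63 (25.4%), against 2442 of 27025 genes with a window (9.04%). The longer form was found in 4 of the 63 (6.35%), against 0.662% of all windows, and the 4 were Dnajb6, Hspd1, Hspe1 and Hsph1. The stretch shared by Hspd1 and Hspe1 holds it in the overlapping run of capitals above. No match lies in the printed bases of Cct6a, which says only that these letters are not there.

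No chaperone gene was detected to change between oocytes cultured in milrinone and untreated oocytes. Of the 122 tested probe sets, which stand for 58 genes, 0 passed an adjusted p of 0.05 in limma, where 0.117% of all 16288 tested probe sets passed. The smallest adjusted p was 0.253, at a probe set of the CCT subunit gene Cct6a. At an unadjusted p under 0.05 there were 12 of the 122 (9.84%), 8 lower and 4 higher in milrinone, beside 9.63% of all tested probe sets (4% lower, 5.62% higher), so the share of chaperone probe sets lay near the background. The groups did not overlap at 7 of the 122 (5.74%), 5 lower and 2 higher, beside 7.8% of all tested (2.74% lower, 5.06% higher). The difference was at least 0.5 in size on the log2 scale at 10 of the 122, beside 7.29% of all tested. The non-overlapping 7 were both probe sets of Cct6a, both of Hspe1 and 1 of Dnajb14, lower in milrinone, and 1 each of Dnajc8 and Hspb6, higher.

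Most of the differences had intervals that stayed within 1 log2 unit of 0. The 95% interval of the log2 difference, milrinone minus untreated, lay within -1 to 1 for 107 of the 122 probe sets (87.7%), beside 90.4% of all tested, and within -0.5 to 0.5 for 60 (49.2%), beside 40.4%. Taking the tested probe set with the highest mean for each gene, the median difference was 0.01 over the 58 genes, with 31 above 0 and 27 below and a range of -1.92 to 0.53, beside a median of 0.07 over all 9454 tested genes. Of the 33 genes with several tested probe sets, 15 had probe sets on both sides of 0, so a value given for 1 probe set need not hold for the others. The remaining 68 member probe sets had too few values to be tested, and 33 of them had none on any array. These left 19 genes untested. The tested share was 122 of 190 chaperone probe sets, beside 16288 of 45037 over the whole array. Chaperone probe sets with a value numbered 124, 128, 128 and 130 on the milrinone arrays 1 to 4 and 140, 133, 133 and 127 on the untreated arrays 1 to 4. Over all probe sets the numbers were 18572, 18803, 18697 and 19414 on the milrinone arrays and 23237, 21151, 19974 and 18855 on the untreated arrays, so untreated 1 was the highest there too.

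**Figure D1:**
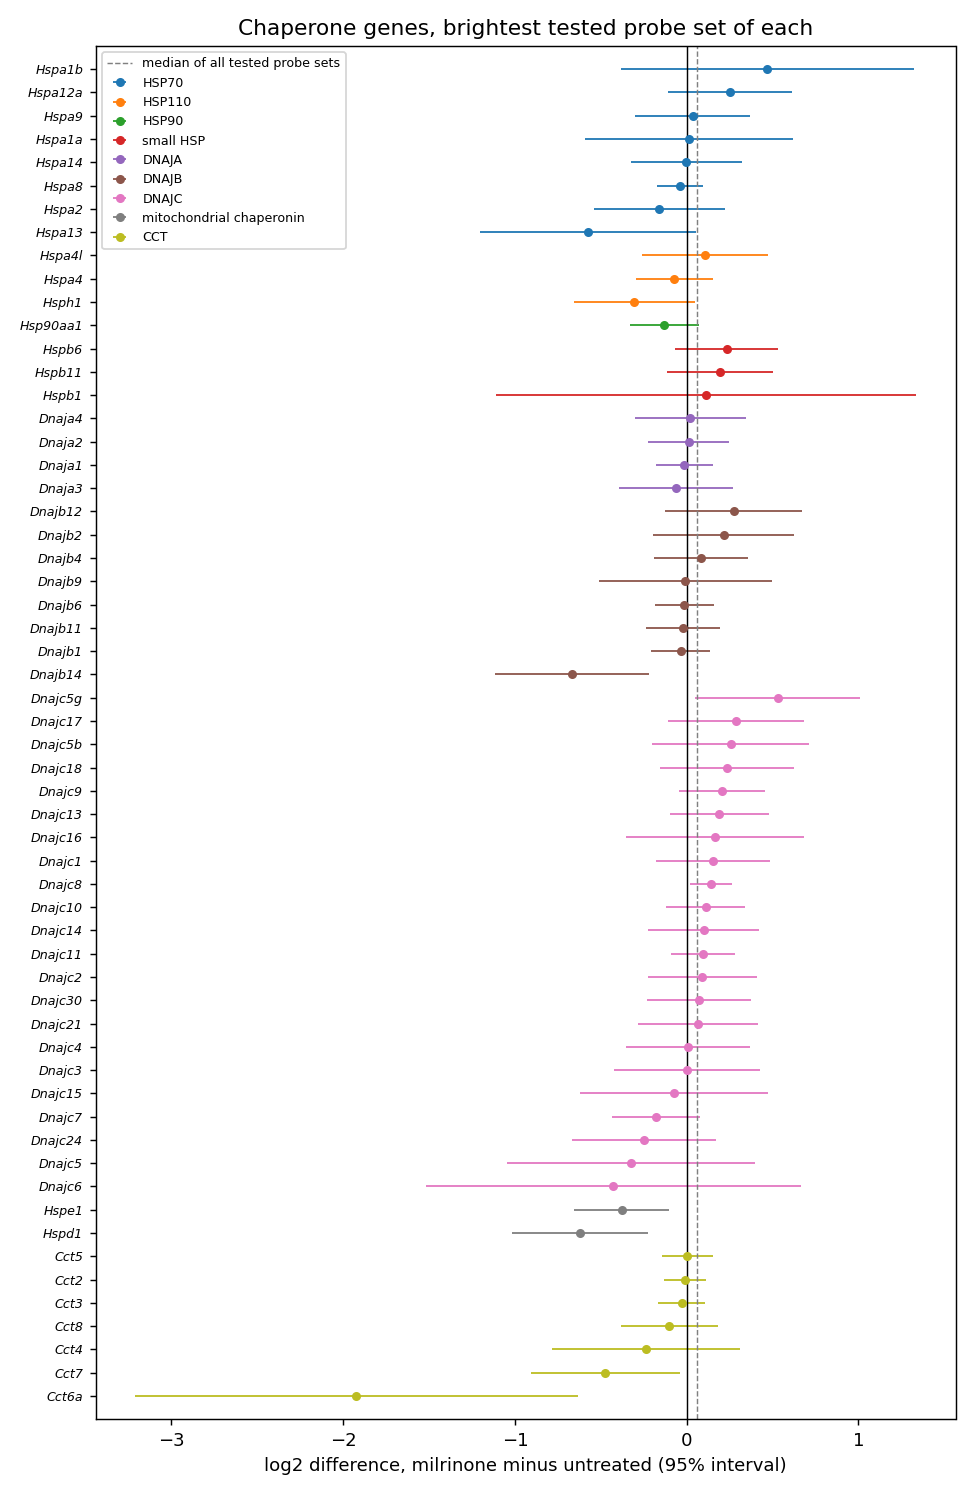
Log2 difference of each tested chaperone gene (points, milrinone minus untreated, 4 arrays a group, horizontal axis in log2 units) with its 95% interval (lines), coloured by class, the dashed line marking the median over every tested probe set. Most genes lie close to 0, and Cct6a at -1.92 lies farthest from it.

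The HSP70 genes had a median difference of 0.01 over 8 tested of 10 genes. Hspa8, the constitutive cytosolic HSC70, read 12738, 13433, 13083 and 13251 on the milrinone arrays and 13018, 12738, 13391 and 14895 on the untreated arrays. The groups overlapped, and the difference of -0.04 had a 95% interval of -0.17 to 0.09. A dim probe set of Hspa8 differed by 0.69 the other way and had an adjusted p of 0.506. Hspa9, the mitochondrial HSP70 mortalin, which drives protein import, differed by 0.03 (-0.30 to 0.37). Hspa14, a ribosome-associated HSP70, differed by 0.00, Hspa2, best known from meiotic male germ cells, by -0.16, and Hspa12a, a distant family member, by 0.25.

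The stress-inducible pair differed more between arrays of the same group than between groups. Hspa1b had 137, 120, 274 and 169 in milrinone samples and 272, 90.1, 119 and 57.6 in untreated samples. High readings stood in both groups, on milrinone 3 and untreated 1, and the difference of 0.47 had an interval of -0.38 to 1.32; it was 0.85 without untreated 1. Hspa1a, its near-identical neighbour, differed by 0.01 (-0.59 to 0.62), and cross-hybridisation between the pair cannot be told apart from its own signal. Hspa13, a microsomal HSP70, had 372, 398 and 319 on the milrinone arrays 2 to 4, was empty on milrinone 1, and had 861, 497, 337 and 608 on the untreated arrays. Its groups overlapped, with a difference of -0.57 (adjusted p = 0.526), and its other tested probe set differed by -0.77 (adjusted p = 0.495). Without untreated 1 these differences were -0.36 and -0.48. Hspa12b and the testis gene Hspa1l were not tested.

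The HSP110 genes, all 3 tested, had a median difference of -0.07. Hsph1, which encodes HSP105, had 4454, 4305, 4419 and 6960 on the milrinone arrays and 5851, 7380, 5613 and 5665 on the untreated arrays. Milrinone 1 to 3 were below every untreated array and milrinone 4 was not, and the difference was -0.30 (-0.65 to 0.05, adjusted p = 0.537). Hspa4 differed by -0.07 and Hspa4l by 0.11. Hsp90aa1, the inducible cytosolic HSP90, had 11667, 11175, 10934 and 11460 on the milrinone arrays and 10783, 12283, 11774 and 14994 on the untreated arrays. Untreated 4 was highest, untreated 1 lay below every milrinone array, and the difference was -0.13 (-0.33 to 0.07). It was the only cytosolic HSP90 gene with a single-symbol probe set in the annotation used.

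Among small heat shock proteins, which hold unfolded proteins without ATP, 3 of 8 genes could be tested. Hspb1, encoding HSP27, was among the most variable chaperone genes. It had 1014, 3322, 1249 and 890 on the milrinone arrays and 1825, 610, 3371 and 719 on the untreated arrays. The highest readings were milrinone 2 and untreated 3, the difference was 0.11 with an interval of -1.11 to 1.34, and the spread within groups was 1.01 on the log2 scale, beside a median of 0.23 over all tested probe sets. A further probe set of Hspb1 was also highest on milrinone 2 and untreated 3 of its groups, with a spread of 1.05. Hspb6, encoding HSP20, had 247, 230, 241 and 221 on the milrinone arrays and 207, 173, 202 and 208 on the untreated arrays. All milrinone values were higher, by 0.23 (-0.07 to 0.53, adjusted p = 0.567). Hspb11, whose product is better known from transport in cilia, differed by 0.20, and Hspb2, Hspb3, Hspb7, Hspb8 and Hspb9 were not tested.

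**Figure D2:**
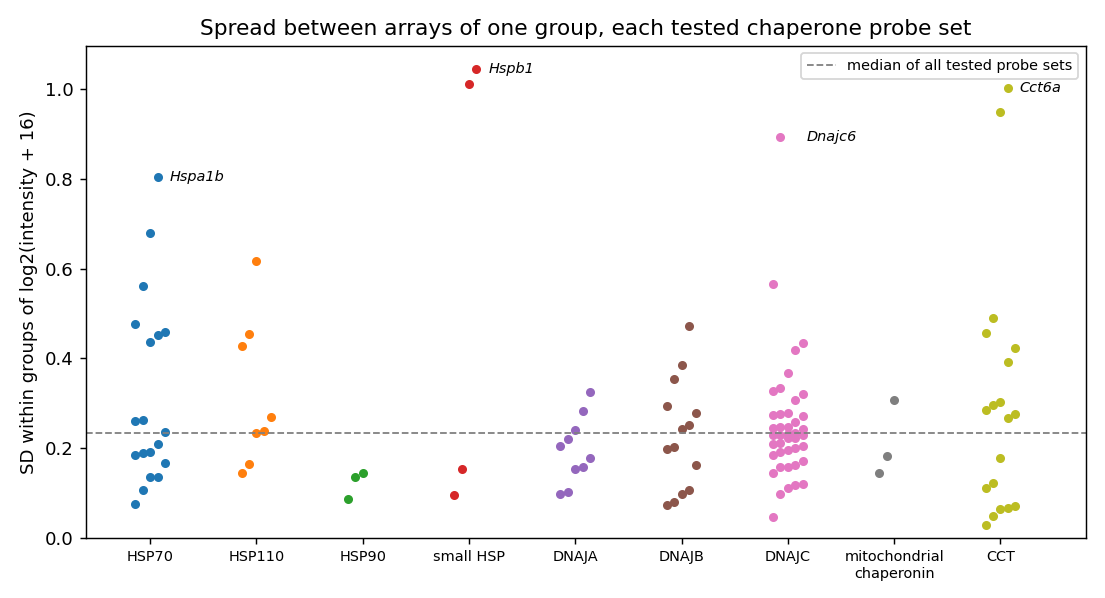
Spread within groups (SD of log2(intensity + 16), vertical axis) of each tested chaperone probe set by class, with a dashed line at the median over every tested probe set, 0.23. Hspb1 at 1.05, Dnajc6 at 0.89, Hspa1b at 0.80 and both probe sets of Cct6a stand above the rest of their classes.

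The DNAJA genes, partners of HSP70 in folding, had a median difference of 0.00. All 4 were tested and all 10 of their probe sets had an interval within -1 to 1. Dnaja1 differed by -0.01 (-0.18 to 0.15), Dnaja2 by 0.01, the mitochondrial Dnaja3 by -0.06 and Dnaja4 by 0.02.

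Of 13 DNAJB genes, 8 were tested, with a median difference of -0.01. Dnajb1, the inducible HSP40, differed by -0.03 (-0.20 to 0.14) and Dnajb6, which restrains aggregation, by -0.01 (-0.18 to 0.16). Dnajb14, a J-domain protein of the endoplasmic reticulum membrane, had 224, 181, 225 and 177 on the milrinone arrays and 479, 261, 276 and 333 on the untreated arrays. The groups did not overlap, and the difference of -0.67 (SE 0.20, 95% interval -1.12 to -0.22) had an adjusted p of 0.460; it was -0.49 without untreated 1. Dnajb12, its close relative in the same membrane, differed by 0.28, Dnajb2 by 0.21, Dnajb4 by 0.08 and Dnajb11 by -0.02. Dnajb3, Dnajb5, Dnajb7, Dnajb8 and Dnajb13 were not tested.

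The DNAJC class is the most varied, its members sharing little beyond the J domain, and 22 of its 27 genes were tested. Their median difference was 0.10, beside 0.07 over all tested genes, with 17 genes above 0 and 5 below. Dnajc8, a nuclear protein linked to splicing, had 11837, 12117, 11860 and 11238 on the milrinone arrays and 10148, 10866, 10761 and 10864 on the untreated arrays. All milrinone values were higher, by 0.14 (SE 0.05, 95% interval 0.02 to 0.26, adjusted p = 0.494), while a further probe set of Dnajc8 differed by 0.00. Dnajc5g, a relative of the synaptic vesicle protein CSP, had 393, 376, 269 and 369 on the milrinone arrays and 173, 294, 312 and 194 on the untreated arrays. Milrinone 3 lay within the untreated range, and the difference was 0.53 (adjusted p = 0.495). Dnajc9, a histone chaperone, differed by 0.21, Dnajc17 by 0.29, Dnajc13, an endosomal protein, by 0.19 and Dnajc7, which binds both HSP70 and HSP90, by -0.18.

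Dnajc6, encoding auxilin, which uncoats clathrin vesicles with HSC70, read 87.3, 51.1, 74.0 and 49.9 on the milrinone arrays and 368, 51.7, 55.4 and 56.5 on the untreated arrays. Only untreated 1 was high; the difference was -0.43, and 0.18 without that array. A probe set of Dnajc21, a ribosome biogenesis factor, had a value on all 4 milrinone arrays and on 1 untreated array, while the gene's tested probe set with the highest mean differed by 0.07. Dnajc12, Dnajc22, Dnajc25, Dnajc27 and Dnajc28 were not tested.

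The genes of the mitochondrial chaperonin, transcribed away from each other out of the stretch printed above, both read lower in milrinone samples without passing the test. Hspd1, encoding HSP60, had 2975, 3763, 3771 and 4554 on the milrinone arrays and 7858, 5747, 5604 and 4293 on the untreated arrays. Milrinone 4 read above untreated 4, and the other arrays kept apart. The difference was -0.62 (SE 0.18, 95% interval -1.02 to -0.23, adjusted p = 0.448), and -0.47 without untreated 1.

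Hspe1, encoding the lid protein HSP10, had 2574, 3009, 3053 and 2637 on the milrinone arrays and 4449, 3159, 3297 and 3859 on the untreated arrays. The groups did not overlap, with a difference of -0.38 (SE 0.13, 95% interval -0.66 to -0.10, adjusted p = 0.460). Its other probe set had 1049, 1203, 1237 and 949 on the milrinone arrays and 1613, 1389, 1500 and 1377 on the untreated arrays, again without overlap, a difference of -0.41 (adjusted p = 0.460). Without untreated 1 the differences were -0.28 and -0.36. Hspa9 and Dnaja3, of the same compartment, differed by 0.03 and -0.06. Other mitochondrial genes, among the co-chaperones and proteases below, differed both ways, and none passed the test. At the tested probe set with the highest mean, Grpel2 and Clpp differed by -0.39, Dnlz by -0.22 and Lonp1 by -0.20. Grpel1 differed by -0.16, Trap1 by -0.13 (0.11 at its other probe set), Afg3l2 by -0.07, Clpb by 0.15 and Clpx by 0.16.

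**Figure D3:**
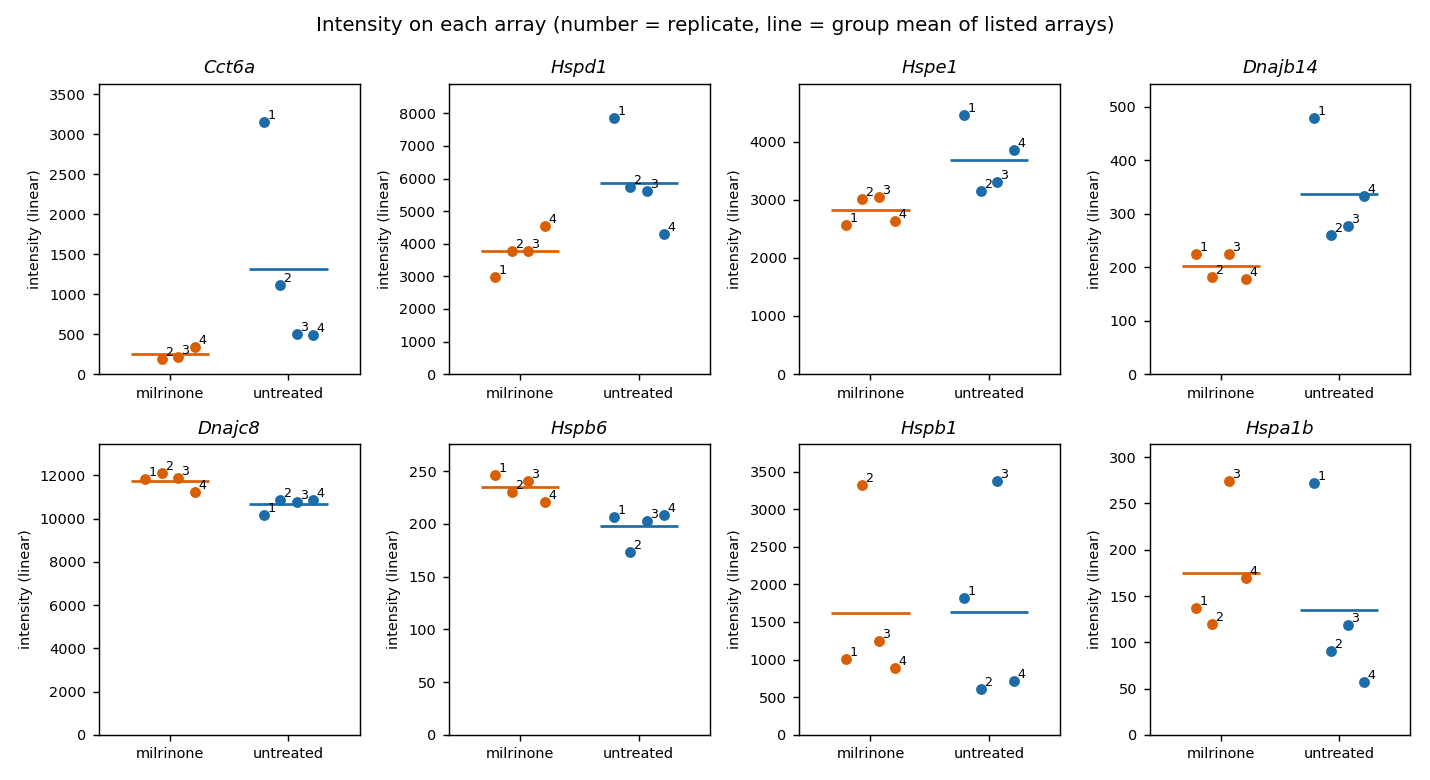
Intensity on each array (points numbered by replicate, linear axis starting at 0) of 8 chaperone genes, milrinone left and untreated right, with the mean of the arrays that have a value as a line. Cct6a, Hspe1 and Dnajb14 lie lower and Dnajc8 and Hspb6 higher on every milrinone array with a value, Hspd1 overlaps at 1 array, and Hspb1 and Hspa1b vary within both groups.

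CCT is a ring of 8 different subunits that folds actin and tubulin, and its subunit genes did not read alike. Cct6a, the zeta subunit, had 195, 213 and 345 on the milrinone arrays 2 to 4, was empty on milrinone 1, and had 3154, 1111, 498 and 493 on the untreated arrays. Every untreated array lay above every milrinone value, and untreated 1 was the highest. The difference was -1.92 (SE 0.57, 95% interval -3.21 to -0.63, adjusted p = 0.460), and -1.36 without untreated 1 (adjusted p = 0.332).

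A dimmer probe set of Cct6a had 105, 60.1, 114 and 222 on the milrinone arrays and 1959, 674, 361 and 329 on the untreated arrays. The order of the arrays was like that of the first probe set, and the difference was -2.32 (SE 0.52, adjusted p = 0.253), and -1.79 without untreated 1 (adjusted p = 0.139). This probe set passed under 2 other treatments of the arrays, with an adjusted p of 0.0377 when arrays were centred on ribosomal protein probe sets and 0.0480 with arrays weighted by their quality.

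Cct7, the eta subunit, had 882, 866, 939 and 1055 on the milrinone arrays and 1903, 1363, 1126 and 979 on the untreated arrays. Only milrinone 4 reached the untreated range, and the difference was -0.47 (-0.90 to -0.04, adjusted p = 0.495), and -0.29 without untreated 1. Cct4, the delta subunit, had 1547, 1144, 1437 and 2496 on the milrinone arrays and 2575, 2050, 1630 and 1423 on the untreated arrays, a difference of -0.24 (-0.08 without untreated 1), while another of its probe sets differed by 0.52 and so disagreed in direction. The remaining subunits had intervals within -0.5 to 0.5: Cct2 differed by -0.01 (-0.13 to 0.11), Cct3 by -0.03, Cct5 by 0.00 and Cct8 by -0.10. Tcp1, the alpha subunit, whose name the rule does not take in, differed by -0.02 (-0.17 to 0.13). Cct6b, the testis form of the zeta subunit, and Cct8l1 were not tested.

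All 8 chaperone probe sets that were lower in milrinone at an unadjusted p under 0.05 had their highest value on untreated 1, as did 522 of the 652 tested probe sets (80.1%) that were lower by the same measure over the whole array. That array was the highest at 23 of all 122 tested chaperone probe sets (18.9%), beside 17.0% of all tested probe sets.

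**Figure D4:**
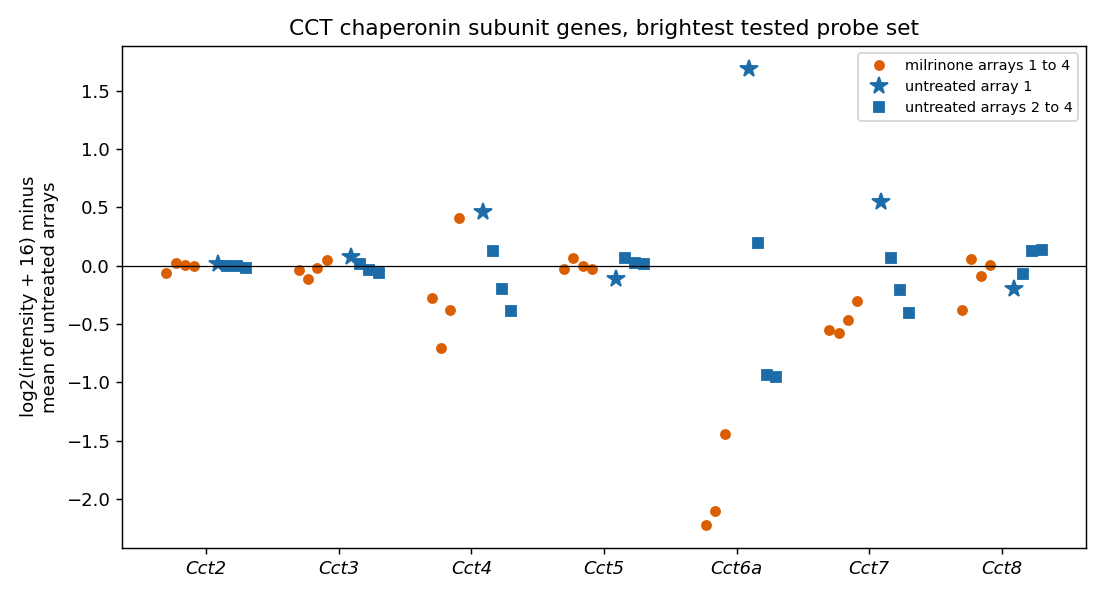
Level of 7 CCT subunit genes on each array relative to the mean of the untreated arrays (log2(intensity + 16), vertical axis), milrinone arrays left of untreated arrays for each gene, untreated 1 as a star. Cct2, Cct3 and Cct5 lie close together on all arrays, and Cct6a spreads widest, with untreated 1 on top.

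Regulators and co-chaperones of these families, from heat shock factors to prefoldin and the mitochondrial proteases, came to 115 probe sets for 57 genes. Of 73 tested probe sets, 0 passed the limma test, and 5 (6.85%, beside the 9.63% of all tested) had an unadjusted p under 0.05, 2 lower and 3 higher in milrinone. The median over 47 genes was -0.06. Fkbp4, the HSP90 co-chaperone FKBP52, had 104, 116, 97.7 and 145 on the milrinone arrays and 760, 265, 171 and 223 on the untreated arrays. The groups did not overlap and untreated 1 was the highest, with a difference of -1.27 (SE 0.37, 95% interval -2.10 to -0.44, adjusted p = 0.456), and -0.83 without untreated 1. Another probe set of Fkbp4 had too few values to be tested, with 90.4 on milrinone 2 and 72.3, 67.8 and 83.2 on untreated 1 to 3. Pfdn2, a subunit of prefoldin, which delivers clients to CCT, differed by -0.42 (adjusted p = 0.495).

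Among the other co-chaperones, Cdc37, which brings kinases to HSP90, differed by -0.35, Tomm34 by -0.27, the mitochondrial protease gene Lonp1 by -0.20 and Stip1, which links HSP70 to HSP90, by -0.06. The probe sets of Sugt1, another HSP90 partner, disagreed in direction, with differences of -0.31 and 0.22. The 3 probe sets that were higher at an unadjusted p under 0.05 belonged to Zfand2a (0.32 and 0.40), an inducible partner of the proteasome, and Cdc37l1 (0.48), genes named after their values were seen. Their adjusted p in limma was 0.51, 0.45 and 0.44. The tested probe set with the highest mean differed by 0.19 for Zfand2a and 0.21 for Cdc37l1, with overlapping groups. Another probe set of Cdc37l1 differed by -0.22. Hsf2 had too few values to be tested, and Hsf1 is not analysed here. The left-out genes of the endoplasmic reticulum, Hspa5 (BiP) and Hsp90b1 (GRP94), differed by -0.49 (adjusted p in limma 0.442) and -0.55 (adjusted p in limma 0.456). The groups overlapped for Hspa5 and not for Hsp90b1, and without untreated 1 the differences were -0.37 and -0.54. A further tested probe set differed by -0.57 for Hspa5 and by -0.22 for Hsp90b1, with overlapping groups at both.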

How the data were processed

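The deposited values are linear intensity readings, 1 per probe set and array; how the authors scaled them, with which software, and why some cells are empty is not given in the sources used here. The deposited scaling was kept, 64 control probe sets were left out and empty cells stayed empty. Gene symbols come from the platform annotation. A probe set was tested if each group had a value on 3 or more of its 4 arrays. The test was limma 3.58.1 (R 4.3.3) on log2(intensity + 16), two-sided, by lmFit and eBayes with a trend, Benjamini-Hochberg over all 16288, threshold 0.05; the scale understates differences of dim probe sets. The number of arrays limits the precision: the median standard error was 0.17 over all tested probe sets and 0.16 over the chaperones. On data simulated for this comparison over 16288 probe sets, 64% of 2-fold, 94% of 4-fold, 100% of 8-fold and 100% of 16-fold changes were recovered, and 9 of 188 calls were false. The simulation drew noise independently for each array and planted 50 changes at each fold. In the real data 19 probe sets passed, which makes the adjusted threshold stricter, and untreated 1 stood apart. These rates can therefore overstate what could be detected here.

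The members and lists were chosen with earlier results of these data known. Genes are named by a rule. It takes all of the HSP70, HSP110, HSP90, small heat shock, chaperonin and CCT classes. It also takes up to 6 with the smallest unadjusted p in each J-domain class and among the co-chaperones. Some were set by name. Dnajc6, Zfand2a, Cdc37l1 and the mitochondrial co-chaperone and protease genes set beside Hspd1 and Hspe1, apart from Lonp1, were added after their values were seen. Python 3.11.15 with pandas 2.3.3, numpy 2.4.6 and matplotlib 3.10.9 made the tables and plots. The alternatives were other scalings, pseudocounts, filters, array weights, a replicate block and leaving out arrays.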

Additional observations from a re-analysis of the deposited data

Results flagged for a closer look

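For the probe sets of named genes that were followed under the alternatives below, 124 groups had a value on all 4 arrays. Of these, 11 held an array whose gap to its nearest neighbour took up most of the group's range (Dixon's ratio above its 95% critical value). Chance gives about 1 in 20, or 6.2, for independent, normally spread groups chosen without regard to their values. Some probe sets here were chosen by p-value or after their values were seen, and some share a gene, so 11 and 6.2 are not a like comparison. Milrinone 4 was the highest milrinone array for Hsph1 (6960 against 4305 to 4455, ratio 0.944) and Sugt1 (4291 against 2986 to 3166, ratio 0.862). Milrinone 2 was the highest for Hspa1a (689 against 364 to 406, ratio 0.871) and Hspb1 (3322 against 890 to 1249, ratio 0.852; at its other probe set 2501 against 607 to 883, ratio 0.854), the lowest for a probe set of Cdc37l1 (180 against 211 to 212, ratio 0.996), and milrinone 1 was the highest for Lonp1 (2839 against 2530 to 2564, ratio 0.891). Among untreated arrays, untreated 1 was the highest for Dnajc6 (368 against 51.7 to 56.5, ratio 0.985) and Fkbp4 (760 against 171 to 265, ratio 0.84) and the lowest for Dnajc8 (10148 against 10761 to 10866, ratio 0.854), and untreated 2 was the highest for Hsph1 (7380 against 5613 to 5851, ratio 0.865).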

How the results depend on the processing

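Over 20 alternatives, 64 results for probe sets of most of the named genes gave 1276 values. Of these, 1269 kept their direction and their side of the threshold, 2 newly passed it and 5 turned sign; 27 results lay within 1 standard error of 0, were given no direction and are not counted as turning, and with them the sign changes came to 99. The number of chaperone probe sets that passed was 0 except under centring on ribosomal protein probe sets and under array weights, which gave 1 each, in both cases Cct6a (dimmer probe set), at -2.16 and -1.89. Over all probe sets, 19 passed, against 51 with ribosomal centring, 106 with array weights, 12 among those with a value on all 8 arrays, 201 with empty cells at 0, 85 without untreated 1 and 4 (chosen after seeing the data), and 9 (without milrinone 3) to 69 (without untreated 1) with an array left out. The median over every tested probe set, 0.06 as reported, became 0.23 with ribosomal centring, -0.13 with quantile normalization and 0.03 with median centring, so differences of that size have no settled sign: ribosomal centring gave class medians of 0.037 for HSP90 (Hsp90aa1 alone, which turned sign), 0.16 for DNAJA, 0.16 for DNAJB and 0.26 for DNAJC. Quantile normalization gave -0.025 for small heat shock proteins and turned Hspb6 to -0.013 and Hspb11 to -0.025, and Dnajc13 turned to -0.024 without untreated 1 and 4, and Hspa8 (other probe set), its dim one, turned to -0.059 with empty cells at 0. With a replicate block 13 probe sets passed in all, and 0 chaperones. Deviations from the group means correlated at 0.03, -0.20, -0.02 and -0.27 between same-numbered arrays, which gave no sign of pairing by number. Such correlations cannot show whether same-numbered samples were collected together, and the labels do not say. The cause of these shifts was not tested.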
